A study of Mus musculus with 4 samples.

Results

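Binding of Insm1, Neurod1 and Foxa2, which are transcription factors of the endocrine pancreas, was described around the genes of the 2 mouse insulins, Ins1 and Ins2, and of amylin, Iapp. A binding site belonged to a locus when its summit fell in a 200 kb window of the mm9 genome. The Ins1 window was chromosome 19 from 52240000 to 52440000, the Ins2 window chromosome 7 from 149765000 to 149965000, and the Iapp window chromosome 6 from 142150000 to 142350000. These windows held 27 of the 60439 deposited sites. Each factor contributed 9 of them, out of 17453 Insm1, 14607 Neurod1 and 28379 Foxa2 sites.

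Ins1 and Ins2 encode the insulins of the mouse, whose Ins1 is a retroposed copy of Ins2, and Iapp encodes islet amyloid polypeptide, a peptide that beta cells store and secrete with insulin. The insulin promoters are short, and in rodents they are known to carry E-boxes close to the transcription start that are bound by basic helix-loop-helix dimers containing Neurod1. Foxa2 is a forkhead factor that can bind nucleosomal DNA and is known in islets and liver, and Insm1 has zinc fingers and is known for its role in the differentiation of endocrine and neuronal cells.

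Chromatin immunoprecipitation and sequencing (ChIP-seq) was performed with an antibody to each of the 3 factors, and control IgG was used in a further sample. The cells were a beta cell line of passages 10 to 15, grown in 25 mmol/l glucose and 15% fetal bovine serum. The line came from islets of RIP1-Tag2 mice aged 6 weeks of mixed background (CBA/J, C57BL/6 and 129/ola). In these mice a rat insulin promoter drives the SV40 T antigen, so all samples carry an insulin promoter in addition to those of Ins1 and Ins2. The labels name no further treatment or genotype, and the series design text counts 6 samples where 4 are described. There was 1 site list per factor, with no replicate list, and the IgG sample enters no comparison. For Foxa2 and for Insm1 the ChIP is described as repeated. The sources used here do not say whether those lists pool several experiments. The lists may therefore differ in the number of experiments behind them, and ranks set side by side between lists carry that uncertainty.

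Each list gives a chromosome, a start, an end, an inner position read as the summit, and a whole-number score. The sources used here do not define the score, so scores were ranked within their own list and never compared between lists. A rank share is the rank divided by the length of the list. A small share means a high score, and such a site is called strong here. Read depth is unknown, no test between factors or loci was possible, and every value below describes 1 list per factor. The sources used here do not say how reads that matched several places were treated. The 2 insulin genes and the transgene promoter share related sequence. Site scores, ranks and summits at Ins1 and Ins2 are therefore uncertain in that respect.

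The insulin and amylin promoters are shown because all 3 factors had a site close to each gene. RefSeq promoter sequences (GRCm38.p6) were matched for 2 of the 3 members, Ins1 and Iapp. The 250 bases before the annotated start are printed 5′ to 3′ on the plus strand. Capitals mark E-boxes (CANNTG) and, in Iapp, the forkhead motif TATTTAC. The Ins1 stretch is chr19:52264047-52264296 and the Iapp stretch is chr6:142298175-142298424 in GRCm38.p6. These coordinates are of another build than the sites and were not set against them.
Ins1: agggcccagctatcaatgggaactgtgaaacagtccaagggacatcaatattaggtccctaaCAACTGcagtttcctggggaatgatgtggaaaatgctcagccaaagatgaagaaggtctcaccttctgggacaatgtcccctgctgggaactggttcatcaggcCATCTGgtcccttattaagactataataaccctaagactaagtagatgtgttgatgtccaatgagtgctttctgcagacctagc
Iapp: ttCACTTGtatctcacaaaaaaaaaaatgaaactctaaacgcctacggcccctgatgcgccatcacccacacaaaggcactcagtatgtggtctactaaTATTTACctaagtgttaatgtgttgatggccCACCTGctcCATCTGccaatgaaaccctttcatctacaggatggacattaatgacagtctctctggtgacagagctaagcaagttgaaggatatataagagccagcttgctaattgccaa

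The Ins1 stretch held 2 E-boxes, CAACTG beginning 188 bases and CATCTG beginning 84 bases before the start. The Iapp stretch held 3, CACTTG at 248 bases, CACCTG at 120 bases and CATCTG at 111 bases before the start. Each stretch thus held 1 E-box of the form CATCTG, which is the reverse complement of CAGATG, a sequence that Neurod1 dimers are known to bind. Past the annotated Ins1 start, an E-box CAAGTG began at base 7 and a further CATCTG at base 43 of the transcript. Of the 32851 RefSeq promoters of this length, 66.2% held at least 1 E-box, 31.8% at least 2, 12.2% at least 3 and 14.4% a CAGATG or CATCTG on either strand. The CAGATG matches are a subset of the E-box matches, and CANNTG reads the same on both strands. TATTTAC began 151 bases before the Iapp start and occurred in 2.73% of promoters on either strand. The letters TGTTTAC (3.17% of promoters), TGTTTGC (4.3%) and the Insm1 core CAGGGGG (5.84%) were found on neither strand of the 2 stretches. The GC content was 46.4% for Ins1 and 42.8% for Iapp, compared with a median of 52.4% over all promoters. A match is a run of letters in this window and not a measured binding site.

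The 3 loci differed in how many sites surrounded the gene. The Ins1 window held 14 sites, 5 of Insm1, 4 of Neurod1 and 5 of Foxa2. The Iapp window held 10 sites, 3 of Insm1, 4 of Neurod1 and 3 of Foxa2. The Ins2 window held 3 sites, 1 of each factor. When the genome was divided into 13206 windows of 200 kb, 7.20% held at least the 14 sites of Ins1, 15.8% at least the 10 of Iapp and 53.4% at least the 3 of Ins2. The median was 3 sites over all windows and 5 over the 9796 windows that held any site. Site number therefore placed Ins1 among the denser windows and Ins2 at the genome-wide median.

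**Figure D1:**
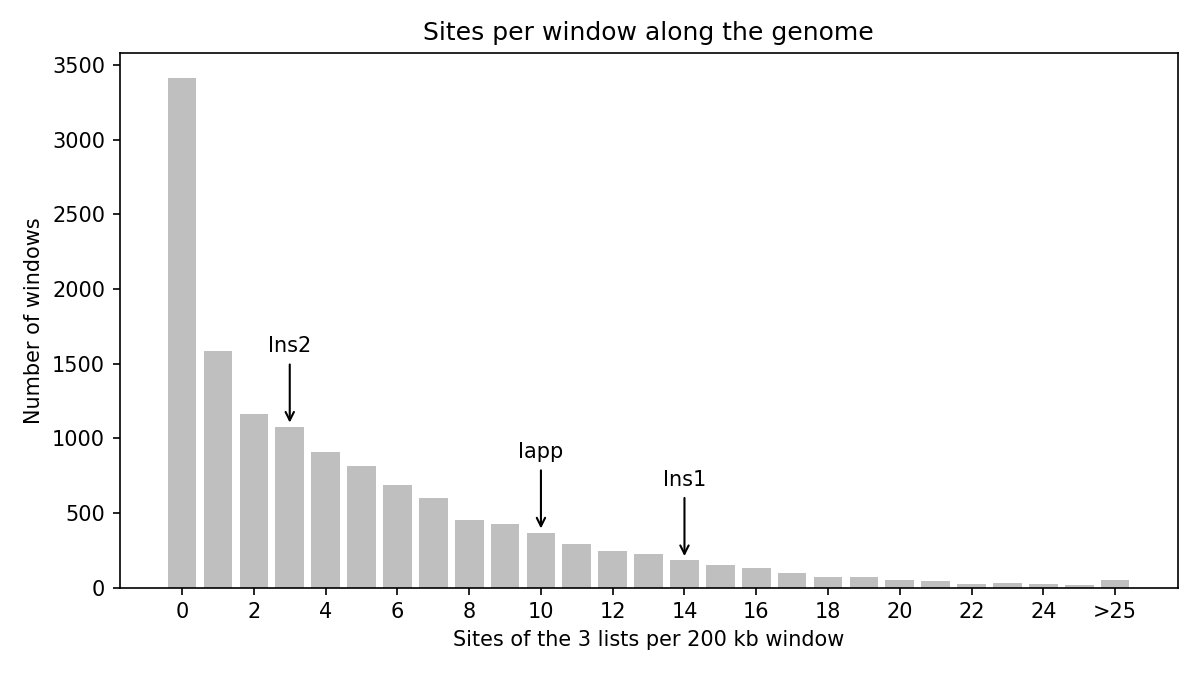
Number of sites of the 3 lists together (x axis) in the 13206 consecutive 200 kb windows of the genome (y axis, number of windows), with arrows at the counts of the Ins2, Iapp and Ins1 windows. The arrows stand at 3, 10 and 14 sites.

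Sites within the loci were either shared by all 3 factors or held by 1 factor alone. Merging sites that overlapped by at least 1 bp gave 13 regions in the 3 windows. Of these, 7 held all 3 factors, 6 held 1 factor and 0 held exactly 2. Over the whole series 16.9% of 39412 merged regions held all 3 factors, 19.5% held exactly 2 and the other 25050 held 1. Ins1 had 4 regions with all 3 factors, Ins2 had 1 and Iapp had 2. At least 4 such regions were found in 2.24% of the windows with a site, at least 2 in 16.0% and at least 1 in 42.2%. As a result 7 of 9 sites of each list had both other factors, compared with 37.9% of all Insm1, 44.9% of all Neurod1 and 23.2% of all Foxa2 sites. These shares describe 13 regions and were not tested. Neighbouring regions of a window are not independent.

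**Figure D2:**
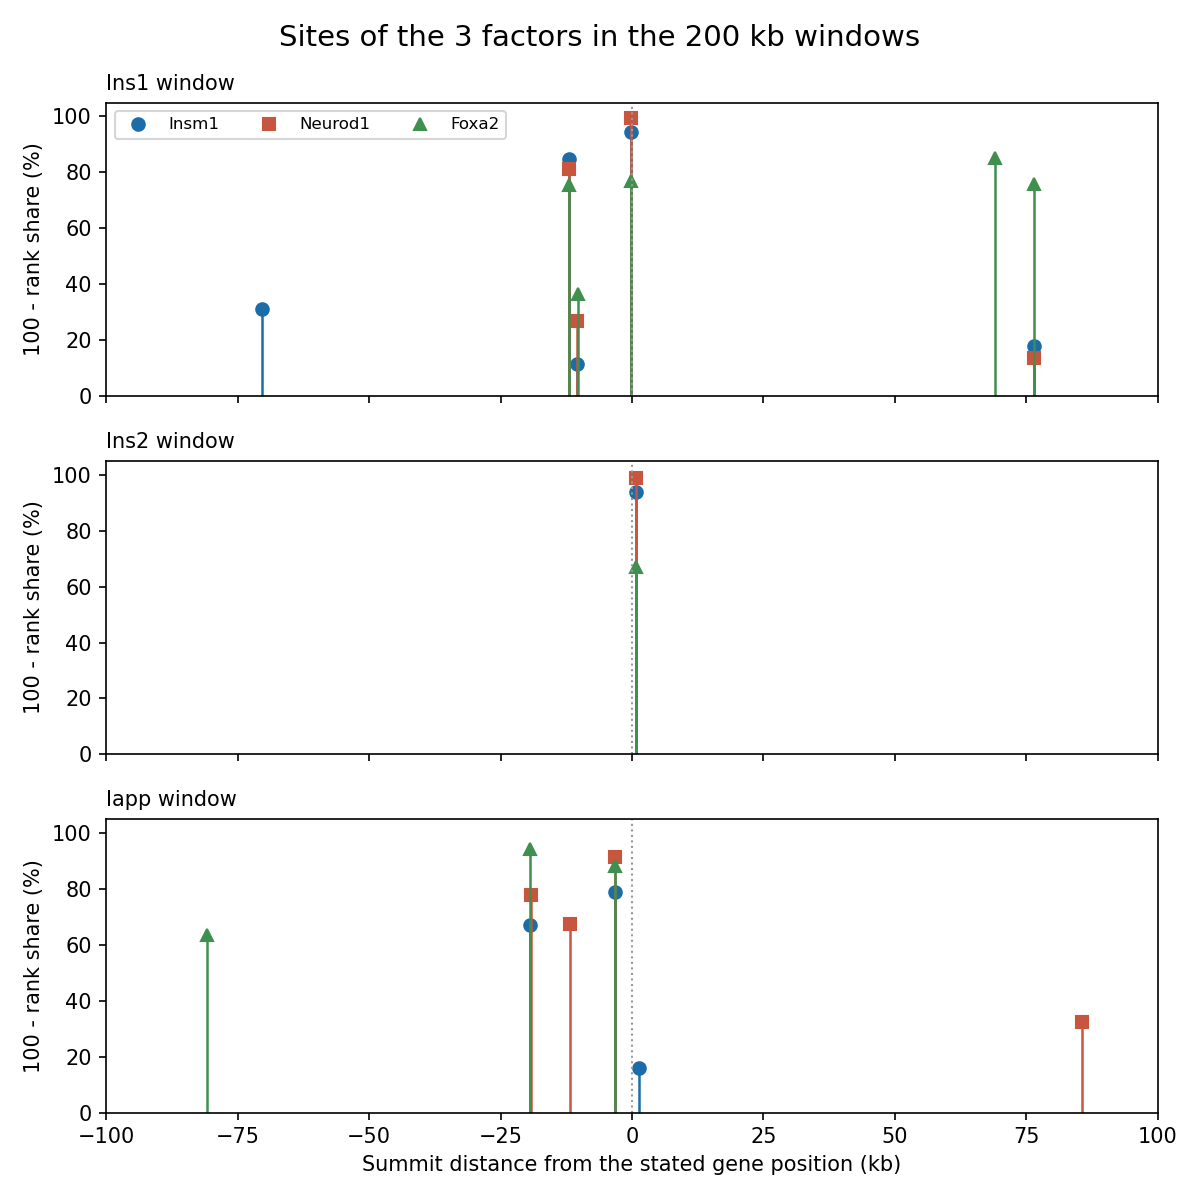
Sites of Insm1 (circles), Neurod1 (squares) and Foxa2 (triangles) in the Ins1, Ins2 and Iapp windows. The x axis is the distance of the summit from the gene position stated in the selection rule (kb), and the y axis is 100 minus the rank share of the site in its own list (%), so that the strongest sites of a list are near 100. Ins1 and Iapp have sites of several regions, and Ins2 has 1 cluster at the gene.

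The highest-scoring sites of Insm1 and Neurod1 in the Ins1 window lay at the gene. The gene position stated for the window was 52.339 Mb, given to 1 kb. The gene-proximal region ran from 52338583 to 52338922 on chromosome 19 and was 339 bp long. Its Neurod1 site (52338675 to 52338894) had a score of 437 and ranked 104 in the list, a rank share of 0.712%. Its Insm1 site (52338724 to 52338892) had a score of 325 and ranked 991, a share of 5.68%. Its Foxa2 site (52338583 to 52338922) had a score of 80 and ranked 6511, a share of 22.9%. The 437 of Neurod1 at the gene compared with 126 at the next Neurod1 site of the window, and the 325 of Insm1 with 225 at the next Insm1 site. Foxa2 did not follow this order. Its highest-scoring site of the window was elsewhere, with a score of 109.

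A pair of regions with all 3 factors lay 10 to 12 kb from the Ins1 gene on the side of lower coordinates. The farther one, from 52326851 to 52327133, was stronger in every list, with scores of 225 for Insm1 (rank share 15.1%), 126 for Neurod1 (18.8%) and 76 for Foxa2 (24.5%). The nearer one, from 52328516 to 52328802, had scores of 88 (88.4%), 56 (72.9%) and 33 (63.6%), all below the median of their list. The Insm1 and Neurod1 summits of the nearer region were 1 bp apart, and its Foxa2 summit lay 96 bp from the Insm1 summit. On the other side of the gene, a region from 52415375 to 52415601, 76.5 kb away, had weak Insm1 (94, 82.0%) and Neurod1 (50, 86.3%) sites and a Foxa2 site of 77 (24.1%). That Foxa2 score was close to the 80 at the gene itself, whereas the Insm1 and Neurod1 sites there ranked far lower than at the gene.

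The remaining Ins1 sites belonged to 1 factor each. An Insm1 site from 52268419 to 52268585 lay 70.5 kb from the gene and scored 107 (68.8%). A Foxa2 site from 52407880 to 52408100, 69.0 kb away on the other side, scored 109 (15.0%) and was the strongest Foxa2 site of the window. In the order of the GRCm38.p6 gene table, Ins1 lies between Sorcs1, which encodes a sorting receptor, and Xpnpep1, which encodes an aminopeptidase. Which of these genes a distal site lies in was not determined, because no mm9 annotation was used here.

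Ins2 had a lone region with all 3 factors and no other site in its window. The region ran from 149865658 to 149865939 on chromosome 7, next to the stated position of 149.865 Mb. Its Neurod1 site (149865663 to 149865864) scored 379 and ranked 179, a share of 1.23%. Its Insm1 site (149865658 to 149865939) scored 318 and ranked 1055, a share of 6.04%. Its Foxa2 site (149865663 to 149865832) scored 60 and ranked 9352, a share of 33.0%. The Neurod1 and Foxa2 sites began at the same base, 5 bp from the start of the Insm1 site.

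The nearest other region of any factor lay 147 kb from the Ins2 region on the side of lower coordinates and held Insm1 and Neurod1. On the other side the nearest was 217 kb away and held all 3 factors. A gap of at least 147 kb to the nearest other region was found for 2.54% of all regions, and the median gap was 10.9 kb. Windows that held exactly 1 region, with all 3 factors, made up 2.28% of the windows with a site. Among the 2133 windows with exactly 1 region, that region held all 3 factors in 10.5%. At Ins1 the nearest other region was 9.78 kb from the gene-proximal one, and 52.8% of all regions had a gap at least as wide. At Iapp it was 4.30 kb, and the share was 71.0%. In the gene table Ins2 lies between Igf2, which encodes an insulin-like growth factor, and Th, which encodes tyrosine hydroxylase.

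Iapp had 2 regions with all 3 factors. The gene position stated for its window, 142.25 Mb, is given only to 10 kb, and the gene is 5396 bp long in GRCm38.p6, where it overlaps the transporter gene Slco1a5. Of these 2 regions, the one nearer to that position is called gene-proximal here, and it ran from 142246664 to 142246944 on chromosome 6. An Insm1 site without the other factors lay nearer still. The gene-proximal region had a Neurod1 site (142246734 to 142246944) that scored 184 and ranked 1293, a share of 8.85%. Its Foxa2 site (142246664 to 142246929) scored 126 and ranked 3378, a share of 11.9%. Its Insm1 site (142246759 to 142246908) scored 196 and ranked 3701, a share of 21.2%. Insm1 and Neurod1 had their highest-scoring Iapp sites here, and Foxa2 did not.

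The other Iapp region with all 3 factors ran from 142230456 to 142230783, about 16 kb from the first. It held the strongest Foxa2 site of the 3 loci, with a score of 192 and a rank of 1618 (5.70%). Insm1 scored 160 there (32.9%) and Neurod1 115 (22.3%), both below their scores at the gene-proximal region. The order of the factors by rank share was therefore Foxa2, Neurod1, Insm1 at the distal region and Neurod1, Foxa2, Insm1 at the gene-proximal one.

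The Iapp window also held 4 regions with 1 factor. Between the 2 shared regions lay a Neurod1 site from 142237982 to 142238203 with a score of 93 (32.5%). The Insm1 site nearest to the gene position, from 142251248 to 142251397, scored 92 (84.0%), and its summit was 1320 bp from that position. A Foxa2 site from 142169000 to 142169208 scored 55 (36.5%) and a Neurod1 site from 142335577 to 142335757 scored 59 (67.6%), and they lay 80.9 and 85.6 kb from the stated position on opposite sides. None of the 6 single-factor sites of the 3 loci was in the top 10% of its list, compared with 10.0% of each whole list. So few sites cannot set the loci apart from that share. Of the 6, the highest by rank share was the Foxa2 site of the Ins1 window (15.0%).

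Neurod1 was the best ranked of the 3 factors at each gene-proximal region. This order was found in 24.4% of the 6665 regions with all 3 factors in the series. At the 4 distal regions with all 3 factors, Foxa2 was the best ranked at 3 and Insm1 at 1, orders found in 48.5% and 27.0% of all such regions. These counts depend on how ranks from lists of unequal length are set side by side. By plain rank, Neurod1 was again best at the 3 gene-proximal regions (38.3% of all such regions), while at the distal ones Foxa2 was best at 2 (30.7%), Insm1 at 1 (31.0%) and Neurod1 at 1. With lists of equal length, each reduced to its 14607 best-scoring sites, Neurod1 was best at the 3 gene-proximal regions (32.2% of 5036 regions), and of the 3 distal regions left Foxa2 was best at 2 (37.5%) and Insm1 at 1 (30.3%). A Neurod1 rank as high as at Ins1 was found in 1.28% of the regions with all 3 factors, as high as at Ins2 in 2.15% and as high as at Iapp in 15.2%. For Insm1 the shares were 12.0% for Ins1, 12.8% for Ins2 and 38.7% for Iapp. For Foxa2 they were 52.7% for Ins1, 65.1% for Ins2 and 33.0% for Iapp. The insulin genes thus had Neurod1 and Insm1 sites above the median of such regions and Foxa2 sites below it. The Foxa2 site of Ins1, with a rank share of 22.9%, was close to that median. Median rank shares in the series were 35.0% for Neurod1, 29.6% for Insm1 and 21.2% for Foxa2. At the gene-proximal Iapp region the sites of all 3 factors were above these medians.

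The mid-ranking Foxa2 sites of the insulin genes were set beside other regions with a strong Neurod1 site. In the 228 regions with all 3 factors and Neurod1 in the top 2% of its list, the median rank share was 7.40% for Foxa2 and 3.76% for Insm1. Foxa2 ranked as low as at Ins1 or lower in 20.6% of these regions, and as low as at Ins2 or lower in 11.0%. Insm1 ranked as high as at Ins1 in 64.0% and as high as at Ins2 in 66.7%. These comparisons were chosen after the values were seen and carry no test.

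**Figure D3:**
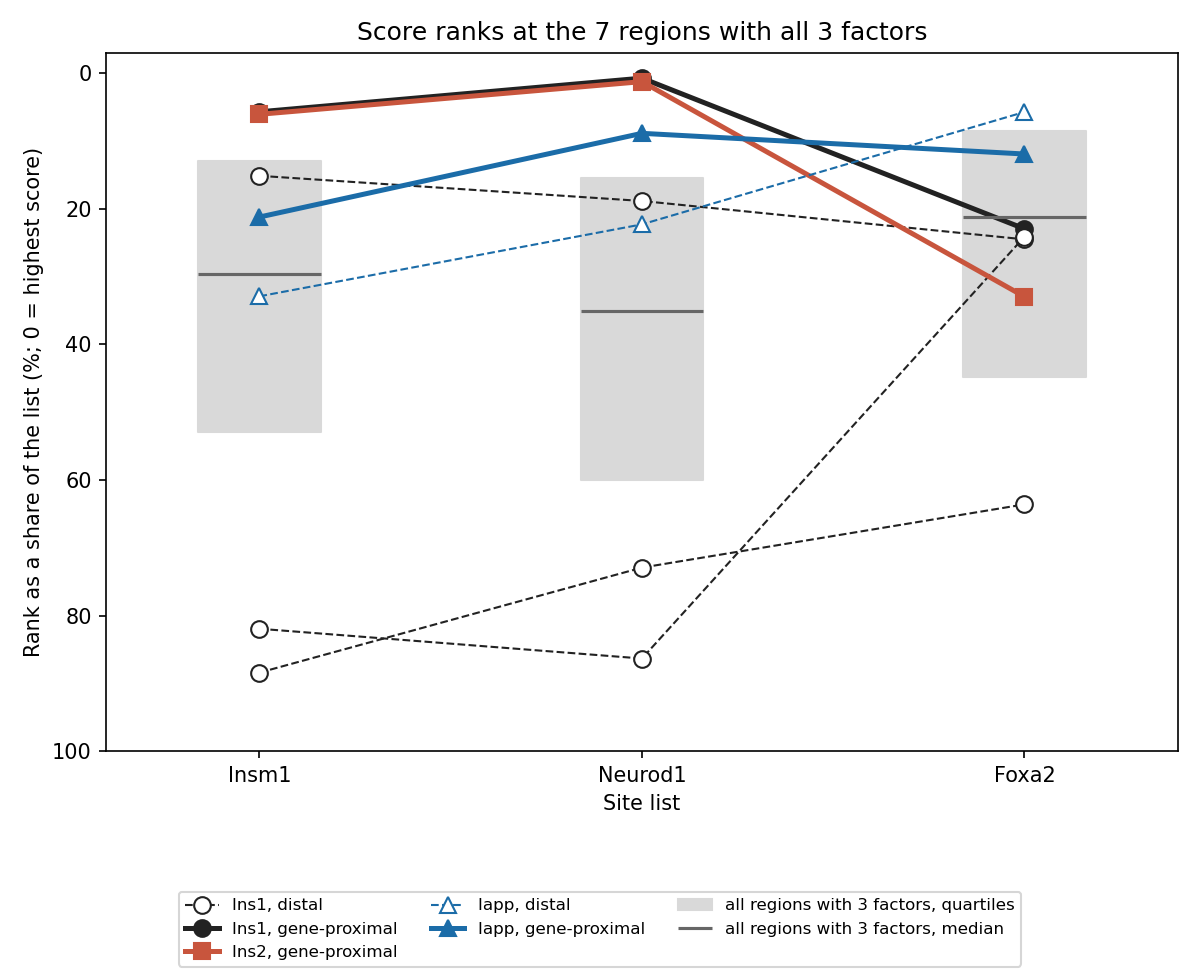
Rank of the Insm1, Neurod1 and Foxa2 site as a share of its list (y axis, %, with the highest scores at the top) at the 7 regions with all 3 factors, joined by region. Thick lines with filled symbols are the gene-proximal regions of Ins1, Ins2 and Iapp, dashed lines are distal regions, and grey boxes with a line give the quartiles and median of all 6665 such regions. The Ins1 and Ins2 lines are highest at Neurod1 (0.712 and 1.23%) and lowest at Foxa2 (22.9 and 33.0%).

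The 2 insulin genes resembled each other in rank and in the spacing of summits, with the uncertainty from related sequence given above. At Ins1 the summits were at 52338817 for Insm1, 52338791 for Neurod1 and 52338809 for Foxa2, a span of 26 bp. At Ins2 they were at 149865731, 149865713 and 149865723, a span of 18 bp. At Iapp they were at 142246794, 142246860 and 142246801, a span of 66 bp. In both insulin regions the Foxa2 summit lay between the other summits, 8 bp from that of Insm1, with Neurod1 on the side of lower coordinates. Ins1 lies on the plus strand and mouse Ins2 is known to lie on the minus strand, so this order is mirrored relative to transcription. At Iapp the Foxa2 summit was 7 bp from that of Insm1, and Neurod1 stood apart on the side of higher coordinates. A span of at most 18 bp was found in 9.02% of the regions with all 3 factors, at most 26 bp in 16.0% and at most 66 bp in 51.3%, with a median of 65 bp. Insm1 and Foxa2 summits were at most 8 bp apart in 4 of the 7 regions of the loci, the fourth being the region 12 kb from Ins1, compared with 13.0% of all regions with all 3 factors. This distance was singled out after the values were seen, and it equals the largest at the gene-proximal regions. At the other regions of the loci these summits were 34, 96 and 97 bp apart. The series median was 39 bp and the upper quartile 75 bp.

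**Figure D4:**
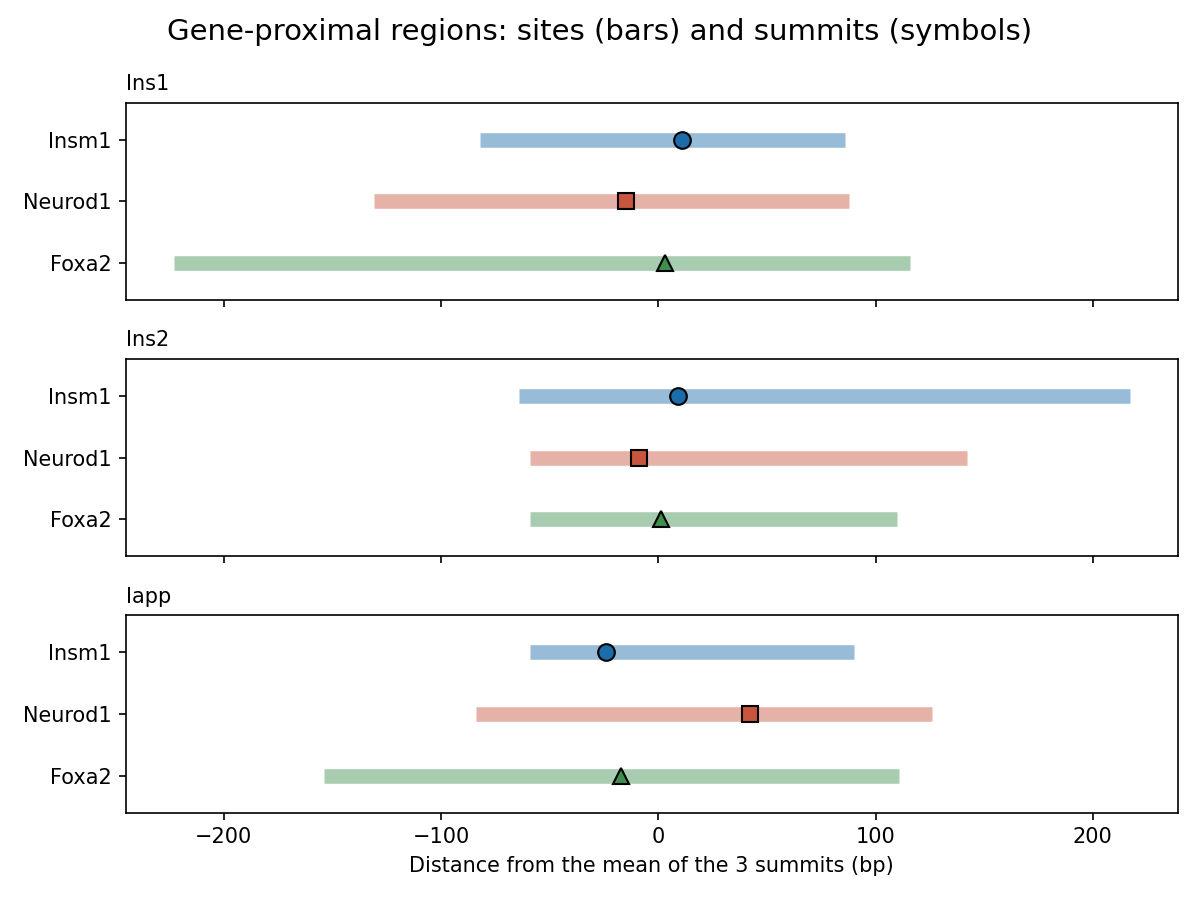
Extent of the Insm1, Neurod1 and Foxa2 sites (bars) and their summits (symbols) at the gene-proximal regions of Ins1, Ins2 and Iapp. The x axis is the distance from the mean of the 3 summits (bp). The summits span 26 bp at Ins1, 18 bp at Ins2 and 66 bp at Iapp.

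Over all 27 sites, scores ran from 88 to 325 for Insm1, from 50 to 437 for Neurod1 and from 33 to 192 for Foxa2, against list medians of 130, 72 and 42. Above the list median were 5 of 9 Insm1 sites, 6 of 9 Neurod1 sites and 8 of 9 Foxa2 sites, compared with 49.3%, 49.9% and 49.4% of the lists. In the top 10% of the list (10.0% of each) were 2 Insm1 sites, at the insulin genes, 3 Neurod1 sites, at the 3 gene-proximal regions, and 1 Foxa2 site, at the distal Iapp region. Sites of the loci were 139 to 281 bp wide for Insm1, 82 to 302 bp for Neurod1 and 169 to 339 bp for Foxa2, with median widths of 168, 210 and 242 bp compared with 175, 147 and 199 bp in the whole lists. None was as narrow as 60 bp.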

How the data were processed

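The submitters' processing notes list CASAVA, Bowtie 0.12.7, MACS 1.4 and the mm9 build. Settings, threshold, control and the use of repeats are not stated in the sources used here. No list has a header, and the deposited score is the authors' own, of unknown definition. Coordinates are as deposited. Sites were assigned to a window by summit, ranked within their list with ties given the better rank, and called shared when they overlapped by at least 1 bp. Overlapping sites of any list were merged into regions. Gene positions come from the selection rule. For the background, chromosomes were divided into consecutive 200 kb windows up to the last site. The alternatives were other window widths, overlap rules and list filters. No test was run, since each factor has 1 list. Named were, per locus and list, the site nearest to the gene position, the highest-scoring site and all regions with 3 factors, and the 6 single-factor sites were named after their values were seen. The genes, windows and lists were chosen with earlier results of these data known. Promoters and the order of genes come from RefSeq tables of GRCm38.p6. Counting was tested on simulated lists. Python 3.11.15, numpy 2.4.6, pandas 2.3.3 and matplotlib 3.10.9 were used.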

Additional observations from a re-analysis of the deposited data

How the results depend on the processing

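Of 154 alternative values of 35 results, 135 stayed within 1.5 times the reported value, or were identical for distances. No value moved beyond these limits without sites of at most 60 bp or with lists of equal length. The same held with centres within 100 bp and with sites widened by 500 bp. Within the limits, lists of equal length took Ins1 from 4 to 3 regions with all 3 factors and from 12 to 9 shared sites. They also took the distal regions with Foxa2 best ranked from 3 to 2. The settings for the best ranked factor were chosen after seeing the data. With only sites above the median score of their list, Ins1 kept 2 Insm1 sites, 2 Neurod1 sites and 2 regions with all 3 factors, with 6 sites shared by all, and the Insm1 site nearest to the Iapp position was 3206 bp away. With 50 kb on each side, Ins1 had 3 Insm1 and 3 Foxa2 sites, and its best Foxa2 rank was 6511. With 250 kb on each side, Ins2 had 6 Insm1, 5 Neurod1 and 4 Foxa2 sites, 3 regions with all 3 factors, 9 sites shared by all and a best Foxa2 rank of 3343. Iapp then had 6 Insm1, 7 Neurod1 and 8 Foxa2 sites, 4 regions with all 3 factors and 12 sites shared by all. These follow from fewer sites or from other window widths. Depth is unknown and each factor has 1 list, so no error between replicates can be given. No paired analysis was possible because each factor has 1 list.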
